A study of Mus musculus with 10 samples.

Results

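The cytosolic ribosomal protein genes were examined by RNA-seq of heart tissue. There were 10 male mice, of which 5 were S1Pless and 5 were littermate controls. The gene set was formed from the symbols alone: every row of the count table whose mouse symbol is Rpl or Rps followed by a digit, together with Rplp0, Rplp1, Rplp2 and Rpsa. Of 95 rows that fit these letters, 10 were kinase or binding-protein genes (Rps6k and Rps19bp1) and 2 were pseudogenes, and these were left out. The remaining 83 genes, of 15341 in the table, comprise 43 of the large subunit, 30 of the small subunit, 3 of the stalk and 7 paralogs with a restricted or auxiliary role. The S1Pless genotype is Sphk1f/-:Sphk2f/-:Mx1Cre+ and the control genotype is Sphk1f/-:Sphk2f/-:Mx1Cre-. All 10 animals therefore carried a floxed and a null allele of both sphingosine kinase genes, and the groups differ in Mx1-Cre, a recombinase driven by an interferon-inducible promoter that acts in blood-forming cells and in some other cells. The design describes the Cre-positive animals as lacking sphingosine 1-phosphate (S1P) in plasma. Ages are not given in the labels used here. The comparison asks whether its transcripts differ between the genotypes, and how they vary from heart to heart inside a genotype.

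Ribosomes are built from ribosomal RNA and, for most of these proteins, a single copy each, so the genes are normally expressed together and in balance. Most of their mRNAs start with a C followed by a run of pyrimidines, the 5′ terminal oligopyrimidine (TOP) tract, through which the growth kinase mTORC1 and the RNA-binding protein Larp1 set how strongly they are translated and how long they are kept. The heart translates long sarcomere mRNAs at a steady rate, and striated muscle also replaces part of its Rpl3, a core protein of the large subunit, with the muscle paralog Rpl3l.

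Sequences around annotated transcription starts illustrate the TOP tract, which was found exactly at the start in a minority of the members. Each window below holds 15 bases before the start and the first 15 bases of the transcript, from RefSeq (GRCm38.p6), written in the direction of transcription, and capitals mark a C at the start with the pyrimidines that follow it. Rps6 to Rpl38 are members chosen because they have such a tract, and Fau encodes a small-subunit protein under a symbol outside the set. Rpl3l and Rps3a1 are members described below whose windows have no such tract at the start. Most members with an entry lack it there too, so its absence does not set these 2 genes apart. The starts of the mRNAs in these hearts were not measured, so a window without the tract does not show an mRNA without it.
Rps6, chr4:86857353-86857382, minus strand: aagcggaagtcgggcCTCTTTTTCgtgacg
Rps18, chr17:33955651-33955680, minus strand: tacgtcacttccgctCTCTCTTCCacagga
Rps27, chr3:90213634-90213663, minus strand: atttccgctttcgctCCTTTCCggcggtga
Rplp2, chr7:141447636-141447665, plus strand: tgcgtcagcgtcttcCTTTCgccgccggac
Rpl14, chr9:120571502-120571531, plus strand: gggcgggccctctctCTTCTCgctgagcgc
Rpl38, chr11:114668565-114668594, plus strand: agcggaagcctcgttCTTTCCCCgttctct
Rpl3l start 1, chr17:24727811-24727840, plus strand: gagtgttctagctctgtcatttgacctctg
Rpl3l start 2, chr17:24732670-24732699, plus strand: gtcatcaacagctacagtgccccaaatgtc
Rps3a1, chr3:86142654-86142683, minus strand: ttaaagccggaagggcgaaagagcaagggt
Fau, chr19:6057932-6057961, plus strand: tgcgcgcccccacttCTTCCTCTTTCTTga
Of 61 members tested below that have an entry, 12 (19.7%) have a C followed by at least 4 pyrimidines exactly at an annotated start, against 2.89% of 10076 other tested genes. Within 5 bases of a start the shares are 45.9% and 23.9%. In the whole windows of 300 bases, on either strand, the letters TCTCGCGA occur in 11 of 61 members and in 2.24% of other genes. CCGGAAG, the core of ETS-family sites, occurs in 39.3% and 19.2%, AAGATGG, the core of a YY1 site, in 16.4% and 8.07%, and GGGCGG, an Sp1 site, in 62.3% and 68.0%. These are letter matches only and show no binding.

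The libraries held 16354071 to 20832566 counts in S1Pless hearts and 17204491 to 20202283 in controls. Levels are given as CPM, counts scaled to a common library size, after scaling by TMM factors, which ran from 0.996 to 1.08 in S1Pless hearts and from 0.884 to 1.00 in controls. The cardiomyocyte markers Myh6, Actc1, Tnnt2, Tnni3, Ryr2, Myl2 and Pln, all detected, summed to 43110 to 54170 CPM in S1Pless hearts and 52140 to 60800 CPM in controls. The 9 macrophage markers summed to 310.9 to 707 CPM in S1Pless hearts and 197 to 265 CPM in controls, none of the 9 was at 0, and 6 of 9 passed the genotype test as higher in S1Pless hearts. In bulk tissue, fewer cells of a type and less RNA per cell cannot be told apart. Neither kinase gene passed the test: Sphk1 had 8 to 18 reads in S1Pless hearts and 16 to 27 in controls (edgeR adjusted p = 0.168), and Sphk2 had an adjusted p of 0.180.

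The genotypes did not separate in the ribosomal protein mRNAs. None of the 81 members that passed the filter on low counts was called higher or lower in S1Pless hearts (edgeR's quasi-likelihood test, Benjamini-Hochberg adjustment over 12992 genes, threshold 0.05). Of all tested genes 3.4% were called higher and 0.316% lower, 3.72% in all. The lowest adjusted p among members was 0.213, and 1 member had an unadjusted p under 0.05 in edgeR, 3 in DESeq2 and 1 in limma-voom, with 0 called by either of the other tools. An unadjusted p under 0.05 in edgeR was found for 19.9% of all tested genes. The groups overlapped in all 81, while 6.35% of all tested genes had groups that did not overlap. The log2 fold changes of members ran from -0.33 to 0.30, 64 of 81 lay within 0.1 of 0, 26 were above 0 and 55 below, and the median was -0.03, against -0.01 over all tested genes. That comparison ignores transcript length, which has a median of 681 nt in members. Other genes of at least 10 CPM with transcripts up to 600 nt had a median log2 fold change of -0.19. From 600 to 1000 nt it was -0.12, and above 4000 nt it was 0.002. Scaling matters for the sign of the members' median: with library totals alone the median of all genes moved up by 0.14, and 72 members lay above 0. A missed threshold does not show equality, since the median standard error of a member's log2 fold change was 0.16, against 0.12 over all tested genes. Per role, the medians were -0.02 for 43 large-subunit genes, -0.03 for 30 small-subunit genes, -0.06 for the 3 stalk genes and -0.00 for 5 tested paralogs. The mean log2 level of the small-subunit genes exceeded that of the large-subunit genes by 0.446 to 0.513 in S1Pless hearts and 0.491 to 0.555 in controls, ranges that overlap.

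**Figure D1:**
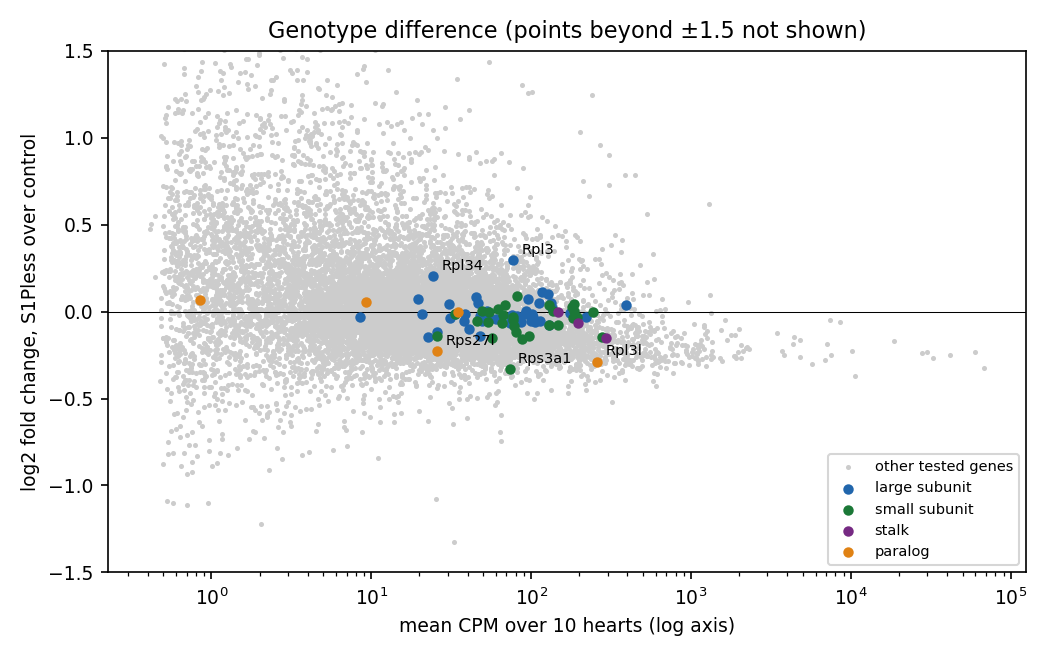
Log2 fold change of S1Pless over control hearts (vertical axis) against mean CPM over 10 hearts (horizontal log axis) for each tested gene, with the ribosomal protein genes coloured by role. The 81 members lie between -0.33 and 0.30, and none was called.

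Large-subunit genes spanned a wide range of levels. Rpl4, which lines the exit tunnel for the new peptide chain, had the highest mean of the set at 389 CPM, with 394 ± 49.2 CPM in S1Pless hearts and 384 ± 50.2 CPM in controls (SD, n = 5 each, as for all means here). Per kilobase of the shortest principal transcript Rplp1 came first at 393 CPM per kb, then Rps15 at 387.5, Rplp2 at 346.7 and Rps14 at 306.1, and Rpl4 was seventh at 253. This order rests on annotated lengths, and the limit on read counting given below for Rpl13a may apply to other members too. Rpl5 and Rpl11, which carry the smallest ribosomal RNA into the large subunit and can restrain Mdm2, averaged 113.9 ± 14.6 and 97.8 ± 19.6 CPM in S1Pless hearts, against 110.1 ± 28.5 and 93.1 ± 20.97 CPM in controls. Rpl6 had the third highest log2 fold change of the set and did not pass, at 121 ± 13.7 CPM in S1Pless hearts and 111.9 ± 18.5 CPM in controls, a difference of 0.11 ± 0.12 on the log2 scale (SE, edgeR adjusted p = 0.639). Leaving out a heart moved that difference between 0.05, without control heart 5, and 0.19, without control heart 3. Among members often used to scale qPCR, Rpl19 had a log2 fold change of -0.05, Rpl32 of -0.03, Rpl13a of -0.03 and Rps18 of -0.02. Rpl13a was counted at only 8.54 CPM, and its level is uncertain: processed pseudogenes nearly identical in sequence exist for many ribosomal protein genes, and how reads with several matches were counted is not known here.

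The stalk genes, whose products recruit the GTPase translation factors, did not pass the test. Rplp0, the base of the stalk, had 329, 305, 235, 263 and 265 CPM in S1Pless hearts 1 to 5, against 320, 306, 376, 276 and 271 CPM in controls 1 to 5. Control heart 3 was the highest and S1Pless heart 3 the lowest, and the groups overlapped. The log2 fold change was -0.15 ± 0.12 (SE, edgeR adjusted p = 0.523), and it was -0.07 without control heart 3 and -0.09 without S1Pless heart 3. Rplp1 averaged 191.9 ± 41.3 CPM in S1Pless hearts and 201 ± 48.4 CPM in controls, and Rplp2 averaged 145.9 ± 28.6 CPM in S1Pless hearts and 146 ± 32.9 CPM in controls.

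Small-subunit genes did not pass either. Rps6, the substrate of the S6 kinases, averaged 84.4 ± 12.6 CPM in S1Pless hearts and 79.3 ± 17.3 CPM in controls. Rps19, mutated in Diamond-Blackfan anaemia in humans, averaged 49.1 ± 12.5 CPM in S1Pless hearts and 48.9 ± 10.4 CPM in controls. Rpsa, which in other cells also serves as a laminin receptor, averaged 142 ± 32.7 CPM in S1Pless hearts and 150.5 ± 34.2 CPM in controls. Rps27a, a ubiquitin fusion, averaged 54.5 ± 9.91 CPM in S1Pless hearts and 54.7 ± 14.3 CPM in controls. Rps2 and Rps3, at the path by which mRNA enters the ribosome, averaged 261 ± 36.1 and 244 ± 38.4 CPM in S1Pless hearts, against 289 ± 38.6 and 245 ± 47.2 CPM in controls. Rps3a1 had 66.3, 65.7, 61.0, 80.3 and 51.0 CPM in S1Pless hearts, against 70.6, 61.0, 117, 79.0 and 80.1 CPM in controls. Control heart 3 stood highest and S1Pless heart 5 lowest, and the ranges overlapped. Its log2 fold change of -0.33 ± 0.16 was the lowest of the set and did not pass (SE, edgeR adjusted p = 0.274). It was -0.17 without control heart 3 (edgeR adjusted p = 0.561).

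Rpl3 and its muscle paralog Rpl3l had log2 fold changes of opposite sign, and neither passed. Rpl3 had 94.6, 103, 70.2, 77.5 and 80.3 CPM in S1Pless hearts, against 78.7, 75.0, 75.7, 53.5 and 63.6 CPM in controls. S1Pless hearts 1, 2 and 5 lay above every control, while S1Pless hearts 3 and 4 lay within the control range. The log2 fold change of 0.30 ± 0.13 was the highest positive value of the set (SE, unadjusted p = 0.0354, edgeR adjusted p = 0.213). When only the library total was used for scaling, Rpl3 passed, with an adjusted p of 0.0330, at a setting that called 10.9% of all genes higher. Rpl3l had 257, 216, 269, 208 and 218 CPM in S1Pless hearts, against 356, 239, 351, 267 and 212 CPM in controls. Control hearts 1 and 3 lay above every S1Pless heart, and the other 3 controls lay inside the S1Pless range. The log2 fold change was -0.29 ± 0.15 (SE, edgeR adjusted p = 0.305). Per kilobase of transcript, Rpl3 stood at 0.376 ± 0.0782 of the Rpl3l level in S1Pless hearts (range 0.266 to 0.487) and at 0.255 ± 0.0534 in controls (range 0.204 to 0.319). Rpl3l was thus above Rpl3 in every heart. S1Pless heart 3, at 0.266, lay inside the control range, and this ratio was chosen after its values were seen and was not tested.

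**Figure D2:**
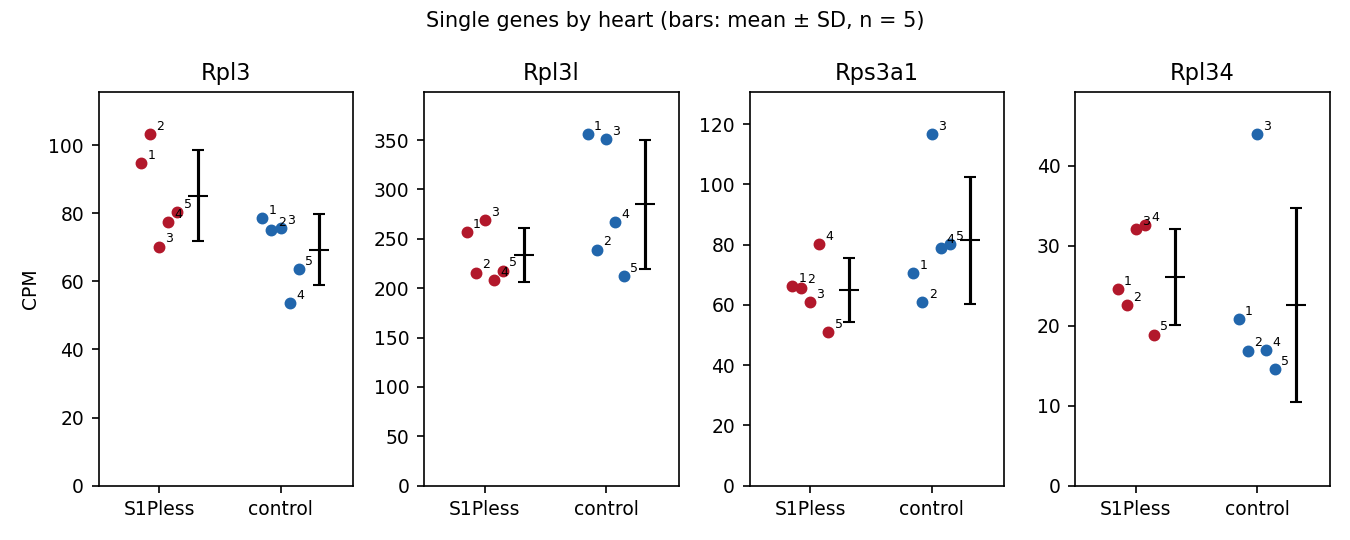
CPM of Rpl3, Rpl3l, Rps3a1 and Rpl34 in each heart (vertical axes start at 0, small digits are the replicate), S1Pless hearts in red and controls in blue, with bars for mean ± SD of 5 hearts. The groups overlap in each gene, and control heart 3 is the highest point for Rps3a1 and Rpl34.

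The other paralogs did not pass the test or were too low for it. Rps27l averaged 23.7 ± 4.55 CPM in S1Pless hearts and 27.8 ± 5.95 CPM in controls, a log2 fold change of -0.23 ± 0.15 (SE, edgeR adjusted p = 0.439), which was -0.11 without control heart 3. Rpl22l1, the relative of Rpl22, averaged 9.36 ± 2.11 CPM in S1Pless hearts and 9.05 ± 2.56 CPM in controls, while Rpl22 itself averaged 101.4 CPM over 10 hearts. Rpl7l1 had the smallest within-group spread of the tested members, with 31.5 to 38.2 CPM in S1Pless hearts and 32.6 to 39.3 CPM in controls. Rpl36al was at 0.869 ± 0.195 CPM in S1Pless hearts and 0.835 ± 0.248 CPM in controls. Rpl39l, with 0 to 3 reads in S1Pless libraries and 0 to 5 in control libraries, and Rps27rt, with 0 to 3 reads in each group, did not pass the filter and were not tested.

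Hearts of the same genotype differed more than the genotype means did. Ribosomal protein mRNAs took 0.984%, 0.857%, 0.762%, 0.675% and 0.723% of all counts in S1Pless hearts 1 to 5, against 0.836%, 0.729%, 0.895%, 0.643% and 0.609% in controls 1 to 5. The mean share was 0.8002 ± 0.123% in S1Pless hearts and 0.742 ± 0.122% in controls, so the difference of 0.0578 percentage points is smaller than the spread within either group. On the scaled log2 CPM axis the mean of the 81 members was 6.42, 6.30, 6.01, 5.87 and 5.92 in S1Pless hearts, against 6.43, 6.02, 6.46, 5.87 and 5.83 in controls. S1Pless hearts 1 and 2 and control hearts 1 and 3 were the high ones, and the means were 6.10 ± 0.240 in S1Pless hearts and 6.12 ± 0.303 in controls. In 67 of 81 members these same 4 hearts had the 4 highest levels. A typical member differed 1.73-fold between its highest and its lowest heart. The within-group standard deviation of log2 CPM had a median of 0.305 over members, against 0.167 over 8636 other genes averaging 10 CPM or more. Those other genes were not matched to the members on transcript length. With the length curve described below taken out of each heart, the members' median was 0.146, while the 0.167 is without that step.

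**Figure D3:**
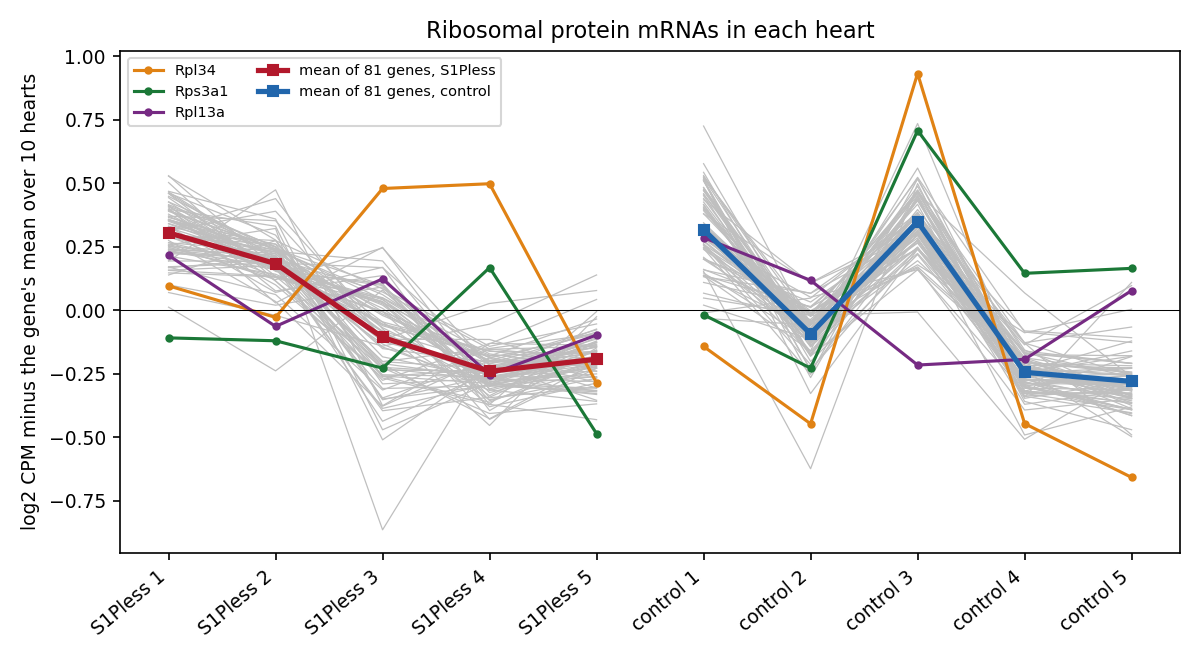
Log2 CPM of each of the 81 tested members minus the gene's own mean over 10 hearts (vertical axis) in each heart (horizontal axis); grey lines join the values of a gene, squares are the mean over genes, and the order of replicates has no meaning. S1Pless hearts 1 and 2 and control hearts 1 and 3 are high in nearly all members, while Rpl34, Rps3a1 and Rpl13a take other courses.

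The deviation was shared across the set. After the group means were subtracted, the median Pearson correlation over 10 hearts among the 3240 pairs of members was 0.894, and 99.8% of pairs were above 0, against a median of 0.011 among pairs of the 8636 other genes. Among 110 other genes with transcripts up to 600 nt, the median was 0.732. All these values come from the same 10 libraries and share their scaling. The first principal component of the members held 84.4% of their within-group variance, and the first component of the other genes held 44.3% of theirs. The group accounted for a median of 0.861% of a member's variance in log2 CPM and at most 34.6%, in Rpl3, against a median of 13.7% over the other genes. Large-subunit, small-subunit and stalk genes deviated to the same side in every heart: the mean deviation in S1Pless heart 1 was 0.308 for large-subunit, 0.341 for small-subunit and 0.333 for stalk genes, and in control heart 5 it was -0.286, -0.318 and -0.297. The stalk genes deviated less than the others in control heart 1, at 0.171 beside 0.305 for large-subunit and 0.333 for small-subunit genes, and in control heart 2, at -0.042 beside -0.090 and -0.099. Rpl37 and Rpl17 were among those that followed the mean of the other members most closely (r = 0.996 and 0.991). Rpl37, for example, had 95.1, 88.0, 70.1, 60.6 and 63.8 CPM in S1Pless hearts, against 99.1, 65.6, 100.5, 60.2 and 57.6 CPM in controls, a log2 fold change of -0.02 ± 0.18 (SE, edgeR adjusted p = 0.964). The high hearts were the same as for the whole set.

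Of the 81 members, 73 had a correlation above 0.8 with the mean of the rest, and the lowest were Rps3a1 (0.275), Rpl13a (0.331), Rpl7l1 (0.409), Rpl34 (0.466) and Rpl29 (0.578). Rpl34, a large-subunit gene, had 24.6, 22.6, 32.1, 32.5 and 18.9 CPM in S1Pless hearts, against 20.9, 16.9, 43.9, 16.9 and 14.6 CPM in controls. Its highest hearts were control 3 and S1Pless 3 and 4, of which S1Pless heart 4 was among the lowest for the set as a whole. Its standard error was wide (log2 fold change 0.20 ± 0.28, edgeR adjusted p = 0.731). Without control heart 3 the log2 fold change was 0.59 ± 0.16 and still did not pass (SE, edgeR adjusted p = 0.0920), and without control heart 5 it was 0.08. Rps3a1 was also highest in control heart 3. S1Pless heart 4 and control hearts 5 and 4 came next and close together, at 80.3, 80.1 and 79.0 CPM. S1Pless heart 3, which was high for Rpl34, had 61.0 CPM of Rps3a1. Rpl29 was low in a single heart, with 12.1 CPM in S1Pless heart 3 against 19.5 to 27.6 CPM in the other S1Pless hearts and 20.1 to 27.4 CPM in controls. Rpl13a had 9.84, 8.11, 9.23, 7.11 and 7.92 CPM in S1Pless hearts, against 10.3, 9.19, 7.29, 7.41 and 8.94 CPM in controls, and control heart 3, which was at the top for most members, was its lowest control.

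The sample titles carry a number, whose meaning the labels do not state, and some of the variation moved with it. The 3 hearts with titles starting with 44 (S1Pless hearts 4 and 5 and control heart 5) had member means of 5.83 to 5.92 log2 CPM, and the 7 with titles starting with 38 had 5.87 to 6.46, with control heart 4 as low as the 44 titles. In 3 pairs of an S1Pless and a control heart whose numbers lie closest, noticed after the values were seen, both lay on the same side of their group means. S1Pless heart 2 and control heart 1 deviated by 0.193 and 0.307, S1Pless heart 3 and control heart 2 by -0.096 and -0.102, and S1Pless heart 4 and control heart 5 by -0.229 and -0.290. This division of the titles accounted for a median of 38.7% of a member's variance, against 13.6% over the other genes. Those other genes were not matched on transcript length. Most members moved together, so their shares are not separate results. Within each series the means were 6.24 in 3 S1Pless hearts and 6.20 in 4 controls of the 38 titles, and 5.90 in 2 S1Pless hearts and 5.83 in 1 control of the 44 titles. With the 38 or 44 series as a covariate no member was called, the median log2 fold change of members was 0.05, and 62 of 81 lay above 0.

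Transcript length moved with the same hearts. The members are short, with a median transcript of 681 nt against 2837.5 nt for all tested genes. Among other genes with transcripts up to 600 nt (110 genes), the median deviation from the group mean was 0.266, 0.152, -0.080, -0.156 and -0.200 in S1Pless hearts 1 to 5, against 0.276, -0.178, 0.319, -0.216 and -0.207 in controls 1 to 5. The 30 members of that length gave 0.398, 0.207, -0.152, -0.257 and -0.212 in S1Pless hearts, against 0.292, -0.134, 0.403, -0.273 and -0.324 in controls. The sign agreed in all 10 hearts. For other genes above 4000 nt (2867 genes) the deviations were -0.114, -0.049, 0.001, 0.085 and 0.084 in S1Pless hearts, against -0.089, 0.035, -0.128, 0.078 and 0.116 in controls, with the high hearts of the short genes now low. Members placed in longer classes by annotation also deviated, but the lengths of their transcripts in these hearts were not measured. The 13 members of 1000 to 1500 nt gave 0.228 in S1Pless heart 1 and 0.268 in control heart 1, where the 781 other genes of that class gave 0.087 and 0.116. The 5 members of 1500 to 2500 nt gave 0.264 in S1Pless heart 1 and 0.341 in control heart 1, where the 1953 other genes of that class gave 0.006 and 0.018. When a curve of expression on transcript length was taken out of each heart, a step chosen after seeing the data, the standard deviation of the members' mean within groups was 0.101 in place of 0.273 and the median correlation of pairs was 0.513. With the same curve as an offset in edgeR no member was called either, while 4.6% of all genes were called higher, and the member median was 0.09, with 70 of 81 above 0. The part of RNA quality or library preparation in this gradient was not tested.

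**Figure D4:**
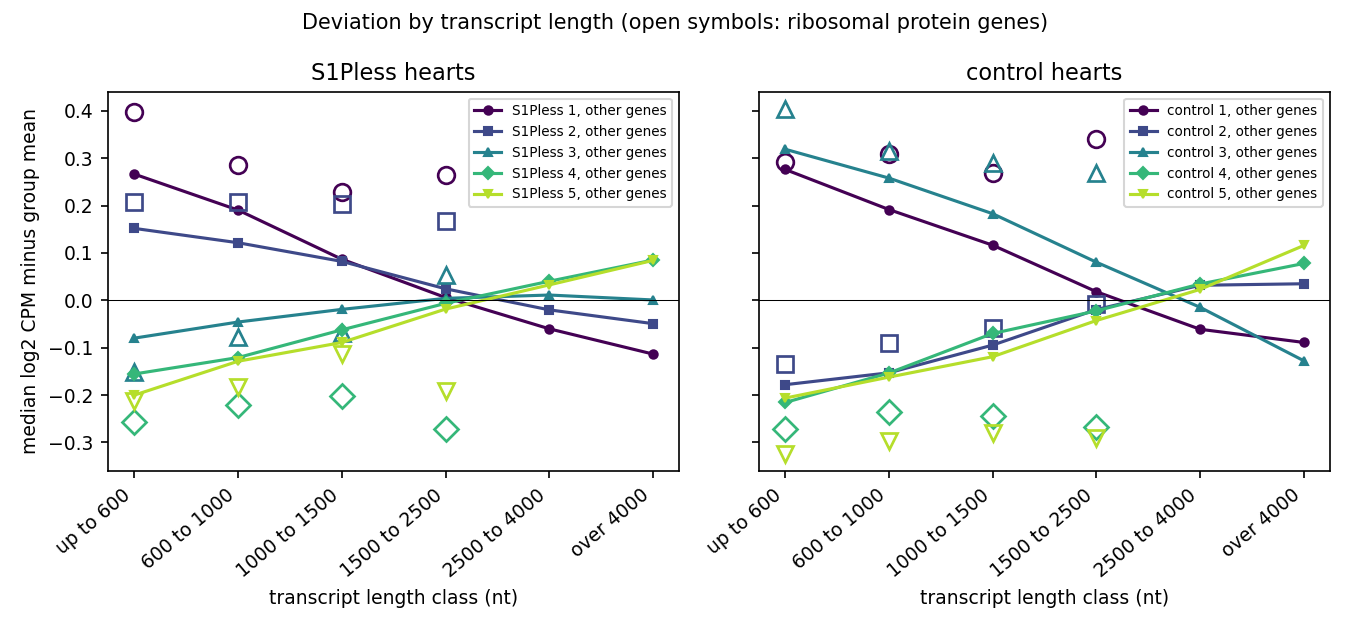
Median log2 CPM minus the group mean (vertical axis) by transcript length class in nt (horizontal axis), for other genes of at least 10 CPM (filled symbols and lines) and ribosomal protein genes (open symbols, shown where a class holds 5 or more), in S1Pless hearts at left and control hearts at right. Short genes are high in S1Pless hearts 1 and 2 and control hearts 1 and 3, and members lie on the same side of 0 in the shortest class.

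Genes outside the set that followed it most closely were also short. Among named genes of at least 10 CPM the 5 most alike over 10 hearts, after group means were subtracted, were Fis1, a mitochondrial fission gene (r = 0.991), Fxyd1, which encodes phospholemman (r = 0.987), Smdt1, a part of the mitochondrial calcium uniporter (r = 0.986), the proteasome gene Psmb6 (r = 0.984) and Tpt1, itself a TOP mRNA (r = 0.983). Fis1 had 86.0, 77.3, 66.3, 58.4 and 58.4 CPM in S1Pless hearts, against 90.3, 61.9, 89.7, 58.9 and 56.0 CPM in controls. The most opposite were Akap13, an anchoring protein for protein kinase A (r = -0.992), the corepressor gene Ncor1 (r = -0.987), Ddhd2 (r = -0.987), Pygo1 (r = -0.983) and Srpr, the receptor for signal recognition particle (r = -0.982). Akap13 had 94.4, 103, 125, 136 and 140 CPM in S1Pless hearts, against 83.01, 119.9, 86.8, 135 and 139.8 CPM in controls, low where Fis1 was high. The 100 most alike had a median transcript of 718.5 nt and held 34 nuclear genes of oxidative phosphorylation, and the 100 most opposite had a median of 6147 nt and held 0 of them.

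Other genes of the translation machinery followed the set to different degrees. Fau, the ubiquitin-like fusion that gives a small-subunit protein, had 59.3, 54.7, 56.1, 41.6 and 42.1 CPM in S1Pless hearts, against 49.9, 42.1, 66.6, 39.3 and 37.3 CPM in controls. Rack1, a signalling scaffold on the small subunit, averaged 243 ± 35.0 CPM in S1Pless hearts and 245 ± 33.7 CPM in controls, and these 2 genes together deviated by -0.225 to 0.397 across the hearts. The lists of elongation and other TOP mRNAs, initiation factors, biogenesis factors and RNA polymerase I stayed between -0.130 and 0.113 in their mean deviation in every heart. Such means can hide genes that moved in opposite directions. In S1Pless hearts 1 and 5, Tpt1 had 537.8 and 389.5 CPM, while the initiation factor Eif4g1 had 310.3 and 505.9 CPM. Of 19 tested elongation and TOP genes 1 was called, Pabpc1, the poly(A)-binding protein, which rose to 103 ± 9.75 CPM in S1Pless hearts, against 79.6 ± 4.30 CPM in controls (log2 fold change 0.37 ± 0.09 (SE), edgeR adjusted p = 0.0304). The list's median log2 fold change was -0.03. Eef1a1 averaged 409 ± 40.7 CPM in S1Pless hearts and 323 ± 65.4 CPM in controls and did not pass (edgeR adjusted p = 0.175). None of 29 initiation factors, 51 biogenesis factors, 15 genes of RNA polymerase I and 19 genes of mTORC1 and TOP control was called (medians -0.10, -0.06, -0.06 and -0.05). Among 9 tested genes that share the prefix but fall outside the set, 2 S6-kinase relatives were called higher: Rps6kl1 at 9.89 ± 1.72 CPM in S1Pless hearts and 5.71 ± 0.7999 CPM in controls (edgeR adjusted p = 0.0139), and Rps6ka1, an RSK kinase, at 12.2 ± 2.52 CPM in S1Pless hearts and 8.17 ± 0.785 CPM in controls (edgeR adjusted p = 0.0315). These 3 calls over the pathway lists fell to 1 when S1Pless heart 5 or control heart 2, 3, 4 or 5 was left out. Calls over all tested genes fell in the same fits, with 118 to 261 called higher in place of 442.

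Nuclear genes for mitochondrial proteins were high in the same hearts. The 76 mitochondrial ribosomal protein genes deviated by 0.131, 0.178, -0.068, -0.086 and -0.156 in S1Pless hearts, against 0.128, -0.146, 0.259, -0.126 and -0.115 in controls. The 84 nuclear oxidative phosphorylation genes deviated by 0.265, 0.171, -0.072, -0.148 and -0.217 in S1Pless hearts, against 0.317, -0.226, 0.335, -0.183 and -0.243 in controls. None of either list was called, and 74 of 76 and 82 of 84 had log2 fold changes below 0 (medians -0.15 and -0.26), where 55 of the 81 cytosolic genes did. With library totals alone the median of all tested genes moved up by 0.14. The median transcript was 1284 nt in the first list and 720.5 nt in the second. Under the main scaling, genes outside the set of 1000 to 1500 nt had a median of -0.10, and those of 600 to 1000 nt -0.12. The part of scaling or length in the medians of these 2 lists was not tested. Mitochondrially encoded transcripts took 27.1%, 27.0%, 23.8%, 22.7% and 22.9% of counts in S1Pless hearts, against 33.4%, 23.7%, 27.1%, 24.8% and 25.3% in controls, highest in the same 4 hearts. As a mean log2 deviation, however, the 9 tested mitochondrially encoded genes were at -0.021 in S1Pless heart 1 and -0.073 in control heart 3, where the members were high. Some cell-type markers took other courses: macrophage markers deviated by 0.832 in S1Pless heart 5, where the members were at -0.182, and atrial markers by -1.12 in control heart 1, where the members were at 0.307. The part of tissue sampling in the swing was not tested.

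**Figure D5:**
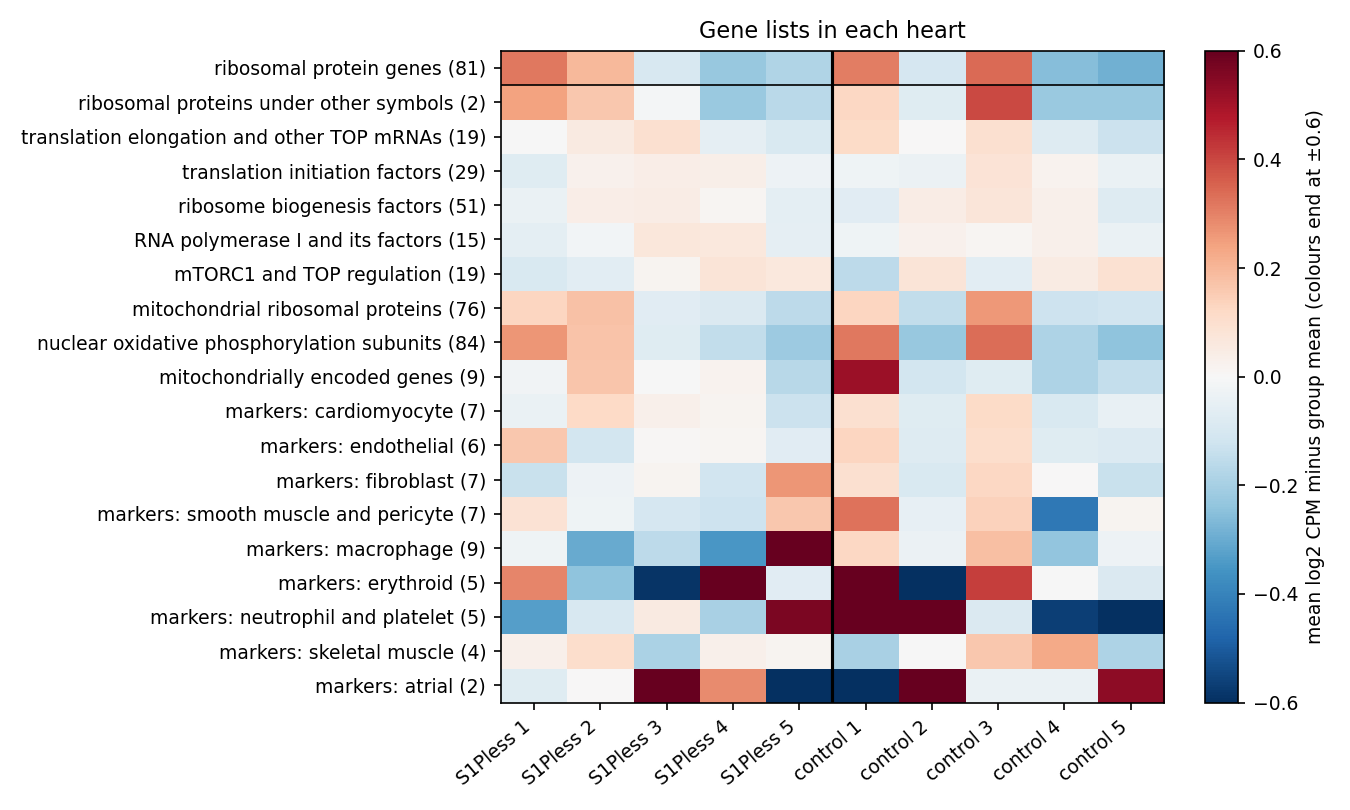
Mean log2 CPM minus the group mean of each gene list (rows, with the number of tested genes) in each heart (columns), red above and blue below the group mean, with colours ending at ±0.6. The ribosomal protein genes, the mitochondrial ribosomal proteins and the nuclear oxidative phosphorylation subunits are above 0 in S1Pless hearts 1 and 2 and control hearts 1 and 3.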

How the data were processed

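Total RNA of cardiac tissue was made into stranded mRNA libraries, per the labels' protocols. The authors deposited raw read counts per Ensembl gene in 1 table. STAR 2.7.8a, featureCounts 2.0.1 and GRCm39 come into it per the submitters' processing notes, with no role or order. For the annotation release, the strand setting and reads that match several places, the answer is not given in the sources used here. Symbols were found for 15321 of 15341 identifiers in a reference table of gene names, and transcript lengths are the shortest principal transcript in GENCODE M21 (GRCm38).

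Groups follow the genotype label, each heart is 1 sample, and replicates are numbered in accession order. No 2 libraries of a group agreed within sampling noise (lowest chi-square per degree of freedom 10.5 over 20 pairs). Whether the hearts were processed together is not given, so p-values measure the spread between these samples. edgeR 4.0.16 in R 4.3.3 fitted all genes (filterByExpr with a minimum count of 10, TMM, robust glmQLFit, two-sided glmQLFTest, Benjamini-Hochberg, threshold 0.05), and log2 CPM used a prior count of 2. Each standard error was derived from the F statistic, as the size of the log2 change over its root. DESeq2 1.42.0 and limma-voom (limma 3.58.1) were alternatives, with other scalings and filters, the title series as covariate, and each heart left out. Members, lists and motifs were chosen with earlier results of these data known. Members named are those with the smallest p-values, largest changes, highest levels, highest or lowest likeness to the rest, fixed role examples and all paralogs. A gene that this rule names is not reported here. Coordinates of sequences are RefSeq's on GRCm38.p6, not the build of the counts.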

Additional observations from a re-analysis of the deposited data

Results flagged for a closer look

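Of 70 groups of 5 hearts checked (30 named members and 5 derived measures per heart, in each genotype), 1 held a heart far from the others, where chance gives about 1 in 20. Rpl34 in control hearts was flagged because control heart 3, at 43.9 CPM, stood apart from the other 4 controls at 14.6 to 20.9 CPM, a gap of 0.786 of the group's whole range.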

How the results depend on the processing

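No paired analysis was possible because the labels give the groups no shared replicate numbers and do not say which animals are littermates. With the title series as covariate, which pairs no animals, the member median was 0.05 in place of -0.03. With each heart left out in turn, 0 members were called higher or lower in all 10 fits, and the member median ran from -0.12 to 0.06, crossing 0. It ran from -0.04 to 0.12 under the other settings. Library totals alone gave 1 member called higher (Rpl3), 5 pathway list genes called higher in place of 3, a median pair correlation of 0.863 and 80.4% of within-group variance on the first component. Pathway list genes called lower were 8 in DESeq2 and 1 with no filter, in place of 0. Over all tested genes, DESeq2 called 264 lower and the fit with no filter 37, in place of 41. Library totals alone called 10.9% of all tested genes higher, in place of 3.4%. Leaving out a heart gave 1 to 4 pathway list genes called higher (1 without S1Pless heart 5 or control heart 2, 3, 4 or 5). It gave 0 to 1 called lower (1 without control heart 1). Over all tested genes, 118 to 261 were called higher in the fits with 1, in place of 442. Without control heart 1, 85 of all tested genes were called lower, in place of 41. Pair correlations ran from 0.881 to 0.936 with a heart left out, and the first component held 82.4% to 89.0%. That component held 77.8% with no filter. Length curves gave 0.513 and 53.2%, the title series as covariate 0.851 and 79.2%, and Spearman correlation 0.842. Low read counts are a limit mainly for Rpl36al, Rpl39l and Rps27rt among the members, and for Sphk1 outside them.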
